A study of Mus musculus with 6 samples.

Results

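Cirbp and Rbm3 encode the cold-inducible RNA-binding proteins, and their mRNAs were described in 6 RNA-seq libraries of mouse bone marrow LSK cells. LSK cells lack mature lineage markers and carry Sca-1 and Kit, and this sorted fraction contains blood stem cells and multipotent progenitors. The members are the rows of the deposited table with the symbols Cirbp and Rbm3, 2 of 16403 genes, and both passed the filter on low counts that left 12564 tested genes. They were picked with the comparison of the groups already seen, so their own difference between the groups is given as a description, with no test. The heat shock genes Hspa1a and Hspa1b stand beside them as context.

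All mice were C57BL/6. In the LIP group, ligature-induced periodontitis had run for 7 days, and the NL group (no ligature) was the unligated control. In this model a thread tied around a molar causes inflammation of the gum and loss of the bone that holds the tooth. Each group had 3 libraries, each from the sorted LSK cells of 3 pooled mice, so spread between libraries is spread between pools. Age, sex, hour of harvest, and temperature of the mice or of the cells during sorting are not given in the sources used here.

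CIRBP and RBM3 are small proteins of a shared family, each with 1 RNA recognition motif followed by a glycine-rich tail. Both mRNAs are known to accumulate at mildly lowered temperature and to decline on warming, which is the opposite of heat shock genes. The proteins bind mRNAs and affect their stability, translation and choice of poly(A) site, including those of the circadian clock, and CIRBP released from cells is known as an inflammatory signal.

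Cirbp (gene 12696) lies on chromosome 10, 80165990 to 80172786, and Rbm3 (gene 19652) on chromosome X, 8138975 to 8145880, in RefSeq on GRCm38.p6. No other RefSeq gene overlapped Cirbp. The antisense noncoding gene Rbm3os shares 454 bases with Rbm3, from 8145427 to 8145880. Whether the counting used strand was not stated, so reads from that stretch could belong to either gene. Across their GENCODE transcripts, Cirbp and Rbm3 shared no exact run longer than 11 bases, and the deposited counts of both were whole numbers in all 6 libraries. In contrast, Hspa1a (chromosome 17, 34969359 to 34972156) and Hspa1b (chromosome 17, 34956429 to 34959238) shared a run of 638 bases and had counts with decimals, so the split of reads between these copies is uncertain.

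The promoter windows of Cirbp and Hspa1a are shown because short motifs linked to cold and to heat are known from these genes. Each is the 250 bases before an annotated start, from RefSeq on GRCm38.p6, read 5′ to 3′ on the gene's strand. The Cirbp window is chr10:80167589-80167838 on the plus strand, with the mild cold response element described for Cirbp (TCCCCGCC) in capitals. The same letters, on the opposite strand, also occur in the Hspa1a window, where they are not in capitals. The Hspa1a window is chr17:34972157-34972406 on the minus strand, with a core of the heat shock element in capitals.
Cirbp: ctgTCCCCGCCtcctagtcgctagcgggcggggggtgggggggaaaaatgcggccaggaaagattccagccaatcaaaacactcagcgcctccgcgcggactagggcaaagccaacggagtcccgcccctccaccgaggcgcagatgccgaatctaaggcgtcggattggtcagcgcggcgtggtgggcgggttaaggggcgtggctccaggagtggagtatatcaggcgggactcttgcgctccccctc
Hspa1a: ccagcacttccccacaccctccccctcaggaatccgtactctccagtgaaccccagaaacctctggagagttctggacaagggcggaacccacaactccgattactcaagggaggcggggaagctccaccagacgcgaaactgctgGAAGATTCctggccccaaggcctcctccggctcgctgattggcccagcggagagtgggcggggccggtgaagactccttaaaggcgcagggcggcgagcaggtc

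Short motifs were searched on both strands of all 32851 promoter windows of this length, and matches of different motifs may overlap. The cold response letters TCCCCGCC were in 4.64% of windows, and the heat shock core (GAANNTTC or TTCNNGAA) in 12.8%. In Cirbp the cold response match began 247 bases before the start, and no heat shock core was found in this window. The GC box GGGCGG, found in 32.7% of windows, matched 3 times in Cirbp, and CCAAT, found in 33.8%, matched 2 times. The window of another annotated Cirbp start (chr10:80167921-80168170) held 4 GC boxes and none of the other motifs. Both Cirbp windows lie inside the span given above for the gene, and no window before the first base of that span was searched for Cirbp. In Hspa1a the heat shock core began 104 bases before the start, and the cold response letters were also present, on the opposite strand from 137 bases before the start. The Hspa1b window differed from that of Hspa1a at 3 of 250 positions and had the same matches. A match describes letters only, and no binding was measured here.

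The 2 cold-inducible mRNAs did not move alike. Cirbp was higher in every LIP library than in any NL library, at 1.41 times the NL level, while Rbm3 had LIP values inside the range of the NL values. The heat shock pair lay far lower in LIP. The values in each library follow, as CPM (counts scaled to the library total, with TMM factors between libraries).

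Cirbp was measured at 34.1, 37.6 and 38.1 CPM in NL-1, NL-2 and NL-3, and at 51.5, 49.8 and 53.4 CPM in LIP-1, LIP-2 and LIP-3. The lowest LIP library exceeded the highest NL library, so the groups did not overlap. The means were 36.6 ± 2.18 CPM in NL and 51.6 ± 1.82 CPM in LIP (SD, n = 3 per group). The log2 fold change, LIP over NL, was 0.49 ± 0.05 (SE) in edgeR's fit over all tested genes. These levels rest on 599, 662 and 670 counts in NL and on 931, 952 and 1022 counts in LIP.

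Rbm3 was measured at 491, 494 and 446 CPM in NL-1, NL-2 and NL-3, and at 458, 457 and 449 CPM in LIP-1, LIP-2 and LIP-3. NL-3 was the lowest of all 6 libraries, and the other NL libraries were the highest. The means were 477 ± 26.8 CPM in NL and 455 ± 5.10 CPM in LIP (SD, n = 3 per group), and the log2 fold change was -0.07 ± 0.03 (SE). Leaving out NL-3 moved it to -0.11, and leaving out NL-2 or NL-1 to -0.04 or -0.05. The LIP mean was lower than the NL mean by a difference of -22.5 CPM, which is smaller in size than the SD within NL. Between 7842 and 8740 counts stood behind each value.

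**Figure D1:**
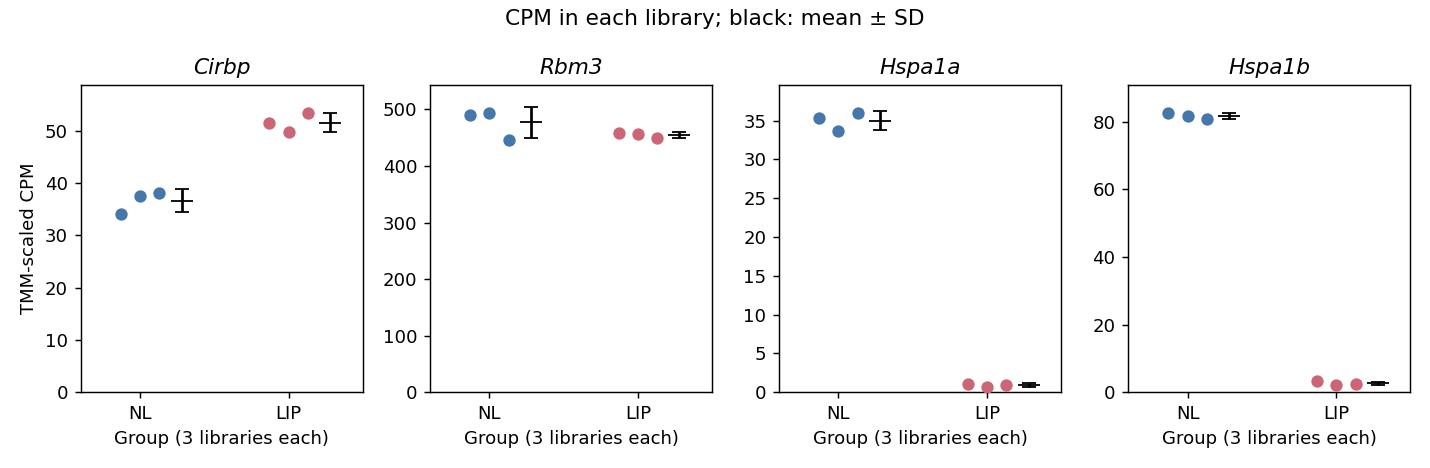
CPM (vertical axes, from 0) of Cirbp, Rbm3, Hspa1a and Hspa1b in the 3 NL and 3 LIP libraries, with 1 point per library and the mean ± SD in black. Cirbp lies at 49.8 to 53.4 CPM in LIP against 34.1 to 38.1 in NL, the Rbm3 groups overlap, and both Hsp70 genes are close to 0 in LIP.

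Set among the 12564 tested genes, 97.6% had a log2 fold change below that of Cirbp, and 297 had one at least as high, Cirbp included. For Rbm3, 35.1% of tested genes had a smaller absolute change. The median absolute log2 change over all tested genes was 0.11. Of the members, 1 of 2 had groups that did not overlap, as did 40.9% of tested genes, 19.9% with LIP above NL. Since the members were chosen on this comparison, that count supports nothing about them. Over all genes 29.9% were called at an adjusted p below 0.05, 14.1% higher and 15.8% lower in LIP. With total counts alone as scaling, 67.9% of calls were higher, against 47.2% with TMM.

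**Figure D2:**
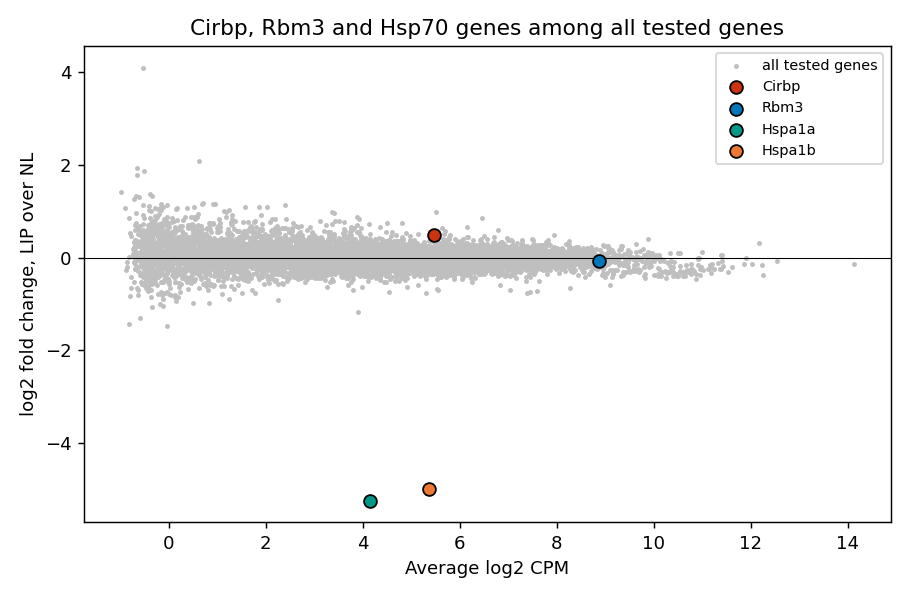
Log2 fold change, LIP over NL, against average log2 CPM for all 12564 tested genes (grey), with Cirbp, Rbm3, Hspa1a and Hspa1b marked. Cirbp (0.49) lies at the upper edge of the genes at its level, Rbm3 (-0.07) within the main cloud, and the Hsp70 genes at -5.24 and -4.99.

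Levels of the 2 genes can be compared only per length, with the deposited TPM, the authors' values scaled to transcript length and library. Rbm3 stood at 627, 625 and 567 TPM in NL-1, NL-2 and NL-3, and at 630, 649 and 622 TPM in LIP-1, LIP-2 and LIP-3. It ranked between 170 and 186 among all listed genes in each library, above at least 98.87% of them. Cirbp stood at 48.7, 53.1 and 53.3 TPM in NL, where it ranked between 2925 and 3204. In LIP it was at 77.5, 77.1 and 80.3 TPM and ranked between 2028 and 2162.

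Rbm3 mRNA was the more abundant in every library. The ratio of Rbm3 to Cirbp in TPM was 12.9, 11.8 and 10.6 in NL-1, NL-2 and NL-3, and 8.13, 8.42 and 7.75 in LIP-1, LIP-2 and LIP-3. All LIP ratios lay below all NL ratios, with means of 8.10 ± 0.338 and 11.8 ± 1.12 (SD, n = 3 per group). Within NL, NL-1 had the lowest Cirbp of the group and NL-3 the lowest Rbm3.

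The spread between libraries is given beside counting error. For Rbm3 the CV (SD over mean) of the CPM was 5.61% in NL and 1.12% in LIP, where counting error alone gives 1.09% and 1.08%. For Cirbp it was 5.96% in NL and 3.52% in LIP, against 3.94% and 3.21% from counting error. Each of these rests on 3 libraries, so no difference in spread is read from them.

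The scaling bears on the sign of Rbm3 but not on that of Cirbp. In deposited TPM the log2 difference was 0.60 for Cirbp and 0.06 for Rbm3, on the log2(value + 0.1) scale. On that scale the median of all tested genes was itself shifted, to 0.12, and relative to it Cirbp stood at 0.48 and Rbm3 at -0.06. With an offset for the trend on transcript length, Cirbp stood at 0.57 and Rbm3 at 0.00 (-0.00444). Leaving out any 1 library gave values between 0.45 and 0.53 for Cirbp. In bulk RNA from a sorted mixture, a change in the share of cells with more of an mRNA and a change in the amount per cell cannot be told apart.

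**Figure D3:**
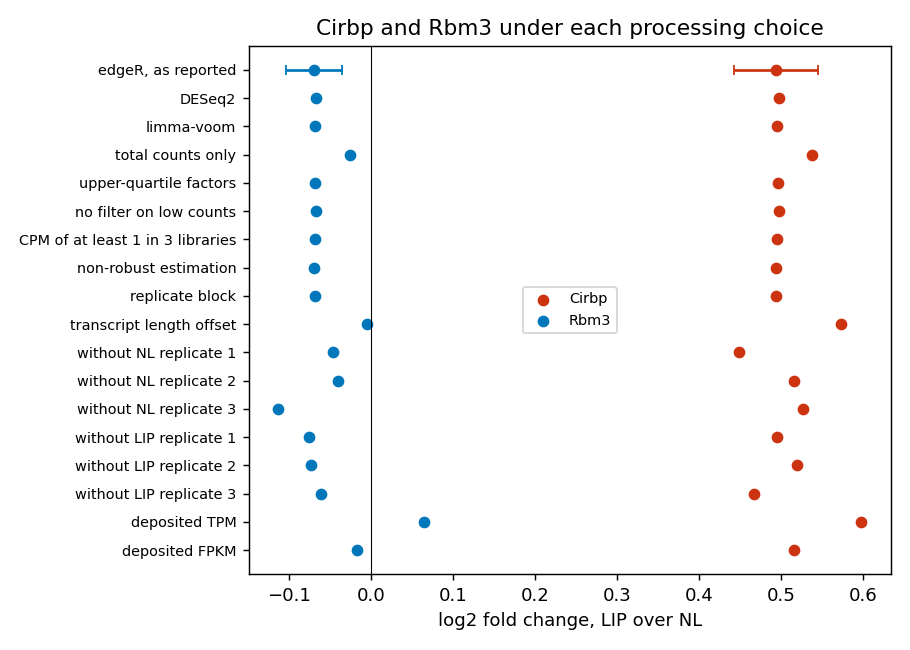
Log2 fold change, LIP over NL (horizontal axis), of Cirbp and Rbm3 under the reported edgeR fit (with its SE as a bar) and each other processing choice. Cirbp stays between 0.45 and 0.60, and Rbm3 lies between -0.11 and 0.06 and crosses 0 in deposited TPM.

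Library depth and markers of other cells were looked at beside these values. Library totals ran from 17780810 to 17962430 counts in NL and from 17890012 to 18841090 in LIP. Of 9 LSK and stem cell markers, all tested, 2 were called higher and none lower by edgeR (1 lower at an unadjusted p below 0.05). The count called lower was also 0 by DESeq2 and in every other fit of all libraries. It stayed at 0 without NL-2, NL-3, LIP-2 or LIP-3, but not without NL-1 or LIP-1. Summed levels of these markers were 2660 to 2690 CPM in NL and 2740 to 2800 CPM in LIP. Neutrophil markers summed to 216 to 232 CPM in NL and 309 to 330 CPM in LIP, with 8 of 8 tested members higher, and Ly6g, the surface marker of mature neutrophils, at 0 to 3 counts in each library. Monocyte markers (213 to 218 against 264 to 271 CPM, 4 of 7 higher and 1 lower), B-lineage markers (60.7 to 64.3 against 74.8 to 79.0 CPM, 4 of 6 higher) and T-lineage markers (10.5 to 12.1 against 14.6 to 16.0 CPM, 2 of 5 higher) were also higher in sum. The single monocyte marker called lower lost its call without NL-1, NL-2, NL-3, LIP-2 or LIP-3. Its call was also lost in DESeq2 and limma-voom, and with total counts alone, non-robust estimation or the transcript length offset. Both T-lineage calls were lost without NL-2 and in DESeq2, where 2 were higher at an unadjusted p below 0.05. Erythroid markers overlapped, at 144 to 148 against 141 to 158 CPM, with 1 of 7 higher and 1 lower. Beside these counts, 14.1% of all tested genes were called higher and 15.8% lower. No marker was at 0 in all libraries. Apart from the erythroid one, these sums were higher in every LIP library than in any NL library, as Cirbp was, and their part in its difference was not tested.

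Heat shock genes were the context for the cold-inducible pair. Hspa1a, which encodes inducible Hsp70, stood at 35.4, 33.6 and 36.0 CPM in NL and at 1.11, 0.68 and 0.993 CPM in LIP, an edgeR log2 fold change of -5.24 ± 0.12 (SE). Its copy Hspa1b stood at 82.6, 81.8 and 80.8 CPM in NL and at 3.21, 2.04 and 2.51 CPM in LIP, a log2 fold change of -4.99. The rule that chose the members names this pair too, so its difference is also given with no test. Their summed level was 117 ± 1.30 CPM in NL and 3.51 ± 0.797 CPM in LIP (SD, n = 3 per group), which does not depend on how reads were split between them. In every LIP library Cirbp lay above and this pair below all NL libraries, while the Rbm3 groups overlapped.

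A list of 26 chaperones, co-chaperones, heat shock factors and related genes had 25 tested members. Of these, 16 fell (64.0%) and 1 rose (4.0%), with a median log2 fold change of -0.33. That count includes Hspa1a and Hspa1b, so it is no support for a fall of this pair. Over all tested genes 15.8% fell, 14.1% rose and the median was 0.00 (-0.000721). Without Hspa1a and Hspa1b, 14 of 23 fell (60.9%) and the median was -0.28. The Hsp110 gene Hsph1 fell from 220 ± 1.77 to 132 ± 5.19 CPM, and the Hsp40 genes Dnaja1 and Dnajb1 fell by 0.66 and 0.69 on the log2 scale. Chordc1, an Hsp90 co-chaperone gene, fell by 0.59. Hsf1, which encodes the main heat shock transcription factor, had a log2 fold change of 0.13 (adjusted p 0.0645) and was named after its value was seen. The count of rises was 2 without NL-2, LIP-1 or LIP-2.

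Proteins with a cold shock domain are a separate family that also binds RNA, and 6 of its 8 listed genes were tested. Lin28a, which blocks let-7 microRNA maturation, rose from 1.61 ± 0.214 to 3.05 ± 0.209 CPM, a log2 fold change of 0.92 ± 0.19 with an edgeR adjusted p of 1.5e-04. Ybx1, an abundant mRNA-binding protein gene, fell by 0.10, from 1320 ± 35.7 to 1230 ± 26.6 CPM. Ybx2 stood at -0.07, Ybx3 at 0.02 and Carhsp1 at 0.01. Csdc2 and Lin28b had at most 2 counts in a library and were not tested, since that depth could not show a difference. Of the 6, 1 rose (16.7%, against 14.1% of all tested genes) and 1 fell (16.7%, against 15.8%), with a median of -0.03. The fall of Ybx1 was lost without NL-1, NL-2 or LIP-3, while 2 members fell without LIP-2.

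Relatives of CIRBP and RBM3 that also join an RNA recognition motif to a glycine-rich tail changed by small amounts. Of 13 tested, 6 rose (46.2%, against 14.1% of all tested genes) and 1 fell (7.69%, against 15.8%), with a median of 0.06. Hnrnpd, which encodes the mRNA decay factor AUF1, rose from 166 ± 9.39 to 195 ± 6.53 CPM. The RNA-binding protein genes Taf15 and Ewsr1 rose by 0.18 and 0.13 on the log2 scale, and Hnrnpa3 by 0.10. Hnrnpa2b1 rose by 0.09, with an adjusted p of 0.0436, named after its value was seen. Rbmxl1, a retrogene copy of Rbmx, fell by 0.11, and this call was lost without NL-1 or LIP-3. The calls of Hnrnpa3 and Hnrnpa2b1 were lost without NL-1, NL-3, LIP-2 or LIP-3. None of the 13 reached the change of Cirbp, the highest being 0.23.

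Clock genes were listed because CIRBP is known to bind clock mRNAs and because Cirbp itself follows the daily cycle of body temperature. Of 21 tested, 3 rose (14.3%, against 14.1% of all tested genes) and 1 fell (4.76%, against 15.8%), with a median of -0.01. Per1, a clock repressor gene that also responds to stress hormones, fell from 67.9 ± 3.29 to 55.5 ± 4.68 CPM, a log2 fold change of -0.29 with an edgeR adjusted p of 1.29e-05. Nr1d1, which encodes the repressor REV-ERBα, rose by 0.33 and Cry2, another clock repressor gene, by 0.16. Bhlhe41 rose by 1.04 from only 0.644 ± 0.199 CPM. The call of Cry2 was lost without NL-1, NL-2, NL-3, LIP-2 or LIP-3, that of Nr1d1 without NL-3 and that of Bhlhe41 without NL-1 or LIP-1. Only 1 gene rose without NL-3, 2 fell without NL-2, and DESeq2 gave 0 rises at the same adjusted p, or 3 at an unadjusted p below 0.05. In DESeq2 Bhlhe41 had no adjusted p and was counted as not called, so its rise was not judged there. Clock, Arntl, Per2 and Cry1 stood at -0.09, -0.16, 0.06 and 0.10, with adjusted p from 0.107 to 0.539, and were picked to be named after their values were seen.

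Extracellular CIRBP is known to act through TLR4 with its partner MD-2, through TREM-1 and through the IL-6 receptor. Of 7 tested receptor and adaptor genes, 1 rose (14.3%, against 14.1% of all tested genes) and none fell by edgeR, with 0 lower also at an unadjusted p below 0.05 and by DESeq2 and limma-voom. Il6ra, the IL-6 receptor gene, rose from 45.9 ± 2.67 to 52.6 ± 0.835 CPM, by 0.20 on the log2 scale with an edgeR adjusted p of 0.00123. Trem1 stood at 0.30 (adjusted p 0.0568), Tlr4 at -0.09, Ly96, which encodes MD-2, at -0.25, and the adaptor genes Myd88 and Tyrobp at -0.07 and 0.01. Cd14, the TLR4 co-receptor gene, stood at 0.24 on 1.36 ± 0.0568 CPM in NL, and turned to -0.17 without LIP-3. Without LIP-2 or LIP-3, 2 genes rose.

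Genes for handling the proteins themselves showed no common direction. The list held the nuclear import receptor gene Tnpo1, the arginine methyltransferase gene Prmt1, whose product modifies such glycine-rich tails, and stress granule genes. Of 12 tested, 2 rose (16.7%, against 14.1% of all tested genes) and 2 fell (16.7%, against 15.8%), and the median was 0.00 (-0.00252). The RNA helicase gene Ddx3x rose by 0.15 and Atxn2l by 0.25, while Prmt1 fell by 0.12 and Caprin1, a partner of G3BP1, by 0.10. Without LIP-2 or LIP-3 1 gene rose, 1 fell without NL-1, NL-2, LIP-2 or LIP-3, and 0 without NL-3, where 2 were lower at an unadjusted p below 0.05. With the replicate number as a block 1 gene rose. The call of Ddx3x was kept in all of these fits, and those of Atxn2l, Prmt1 and Caprin1 were the ones lost.

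Kinases that tune splicing with temperature are known to control poison exons, which lead to decay of the mRNA. Of 8 tested genes, 2 fell (25.0%, against 15.8% of all tested genes) and 1 rose (12.5%, against 14.1%), with a median of 0.01. Clk1, a kinase of splicing factors that is more active at lower temperature, fell from 168 ± 2.24 to 134 ± 6.40 CPM, a log2 fold change of -0.32 ± 0.04 with an edgeR adjusted p of 2.13e-10. Its close relative Clk4 fell by 0.16, and Srpk2, another kinase of splicing factors, rose by 0.16. Clk3, Clk2, Srpk1, Dyrk1a and Hnrnph1 stood between -0.02 and 0.05 with no call. The call of Clk4 was lost without NL-2 or NL-3.

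Mild hypoxia is another known inducer of Cirbp and Rbm3. Targets of the hypoxia-inducible factors went both ways, and whether these factors act on Cirbp or Rbm3 was not tested. Of 13 tested, 2 rose (15.4%, against 14.1% of all tested genes) and 3 fell (23.1%, against 15.8%), with a median of 0.01. The kinase gene Pdk1 rose by 0.23 and the oxygen sensor gene Egln1 by 0.12. The collagen hydroxylase gene P4ha1 fell by 0.26, the glucose transporter gene Slc2a1 by 0.19 and Ldha, of lactate metabolism, by 0.12. Vegfa stood at 0.00 (0.00428) with an adjusted p of 0.98, named after its value was seen. Adm had at most 3 counts in a library and was not tested. The call of Egln1 was lost without NL-1 or LIP-2, which left 1 rise, and that of Slc2a1 without NL-3.

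**Figure D4:**
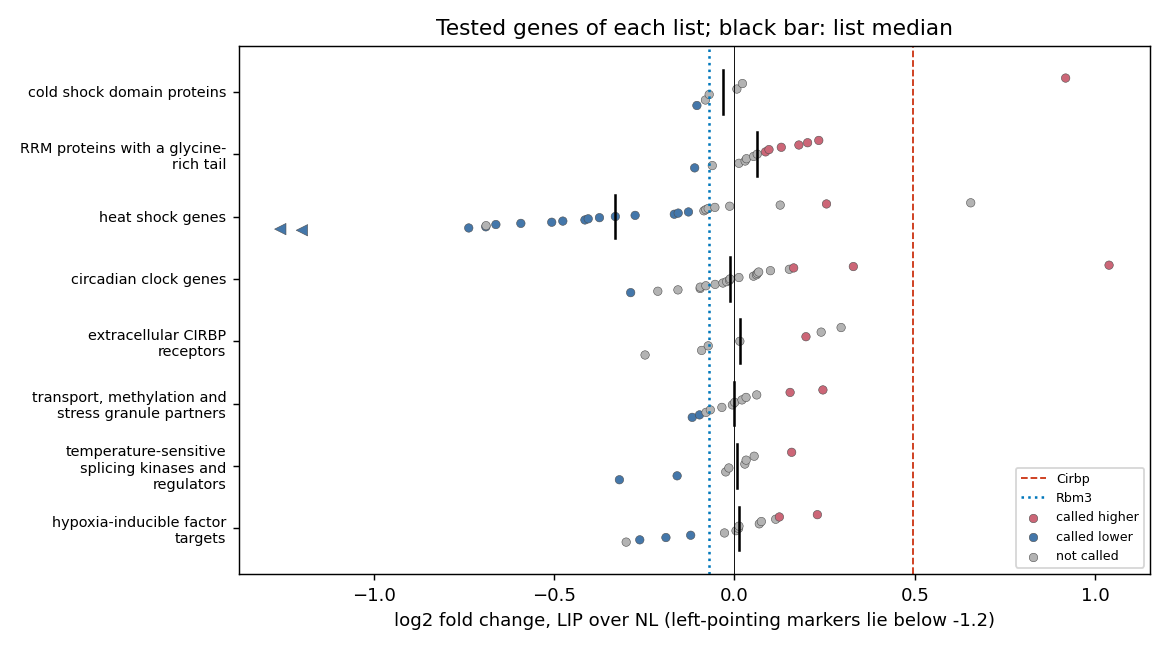
Log2 fold change, LIP over NL, of the tested genes in each of the 8 lists, with called genes in colour, list medians as black bars, and dashed and dotted lines at Cirbp (0.49) and Rbm3 (-0.07). Hspa1a and Hspa1b lie off the scale as left-pointing markers, the heat shock median is -0.33, and the other medians lie between -0.03 and 0.06. The colour of Hspa1a and Hspa1b is no test, since the rule that chose the members names them.

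Profiles over the 6 libraries were compared by the root mean square distance between log2 CPM values centred on each gene's mean, among the 9733 genes that averaged at least 3 log2 CPM and were not predicted models. Cirbp and Rbm3 were 0.30 apart. Nearest to Cirbp were Serpine2, a protease inhibitor gene, at 0.048, Mefv, which encodes pyrin, at 0.051, the nucleoside transporter gene Slc28a2 at 0.052, Selp, which encodes P-selectin, at 0.052, and the sorting receptor gene Sorl1 at 0.055. Their log2 fold changes lay between 0.41 and 0.55. Nearest to Rbm3 were Peak1 at 0.015, Epm2aip1 at 0.017, and Tnip2, Hhex and Rmi1 at 0.021. Hhex encodes a homeobox factor of early blood cells and stood at 98.4 CPM in NL and 95.1 CPM in LIP. Like Rbm3, all of these lay above their own mean in NL-1 and NL-2 and below it in NL-3. The genes were picked for this likeness, so it is no test.

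**Figure D5:**
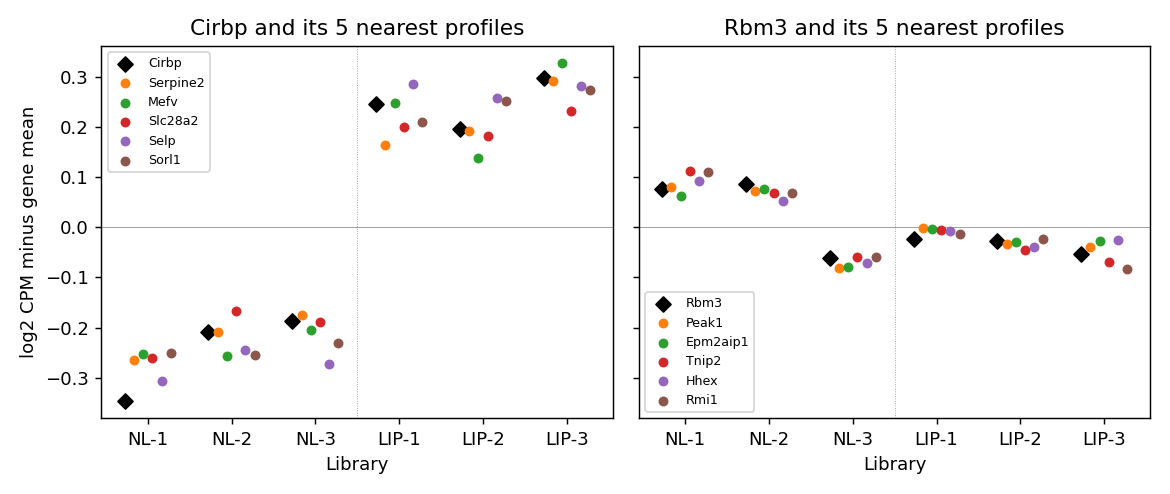
Log2 CPM minus the gene's mean in each library (vertical axis) for Cirbp and Rbm3 (black diamonds) with their 5 nearest genes (coloured points). The Cirbp set lies below 0 in NL and above 0 in LIP, while the Rbm3 set is above 0 in NL-1 and NL-2 only.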

How the data were processed

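RNA of sorted LSK cells was sequenced as polyA-selected libraries with 100 bp paired-end reads on a BGISEQ platform, per the labels' protocols. The submitters' processing notes name STAR, HTSeq and GRCm38, and their roles are not given in the sources used here. The authors deposited estimated counts, FPKM values and TPM values per gene and library. Between 86.3% and 86.8% of the deposited estimated counts were whole. A test of whole counts was planned, so the counts were rounded first. The 6 columns of group means were not used.

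Genes were kept by filterByExpr and scaled with TMM. The groups were compared with edgeR 4.0.16 (R 4.3.3), robust quasi-likelihood test, group as the only term, Benjamini-Hochberg adjustment over 12564 genes, call below 0.05. This pipeline was tested on simulated counts. P-values measure spread between pools of 3 mice. Totals were 17780810 to 18841090 counts, where 3 counts are 0.159 to 0.169 CPM, counting error only. Alternatives were DESeq2 1.42.0, limma-voom (limma 3.58.1), other scaling, filters and estimation, a replicate block, a transcript length offset (lowess span 0.3, lengths from deposited FPKM and counts), deposited TPM and FPKM, and leaving out each library. TPM and FPKM took a pseudocount of 0.1. A gene without an adjusted p in DESeq2 was counted as not called there.

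The members, the 8 pathway lists and the 6 marker lists were chosen with earlier results of these data known. Named genes are the members, Hspa1a and Hspa1b, all tested genes of lists of up to 8 genes, up to 6 called genes with the smallest p of longer lists, and the 5 nearest profiles of each member. Some genes that this rule names are not reported here. Same-numbered libraries gave no sign of pairing.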

Additional observations from a re-analysis of the deposited data

How the results depend on the processing

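Of the 31 called genes that the naming rule took from the lists, 18 kept call and direction in all their alternative fits. Hspa1a and Hspa1b, which are given with no test, are counted in both numbers. Replicate numbers gave no sign of pairing the libraries. Correlations of deviations between same-numbered NL and LIP libraries were 0.0295, -0.0163 and -0.113, and not every library correlated best with its own number. Deviations from the mean of only 3 libraries cannot show that no pairing existed. With the replicate block the only count among those given that moved by over 1.5 times was that of stress granule and partner genes called higher, to 1, and Cirbp and Rbm3 stood at 0.494 and -0.0683. The causes of the shifts below were not tested.

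Over all genes, DESeq2 called 1167 higher and 1317 lower, and total counts alone 2756 and 1301. The length offset gave 0.573 for Cirbp and -0.00444 for Rbm3, and deposited TPM 0.598 and 0.0646.

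Total counts alone gave 0 cold shock domain, 0 glycine-rich, 0 partner, 1 splicing kinase and 1 hypoxia gene lower, and 2 heat shock, 6 clock, 2 receptor and 4 hypoxia genes higher. The length offset gave 2 cold shock domain genes lower, and 2 heat shock, 2 receptor and 1 partner genes higher. DESeq2 gave 0 glycine-rich and 1 splicing kinase genes lower, and 0 clock and 1 hypoxia genes higher, where the clock gene Bhlhe41 had no adjusted p. Without a filter 2 heat shock genes were higher. At an unadjusted p below 0.05, the zeros of total counts alone were 0, 0 and 1 genes, and those of DESeq2 1 glycine-rich and 3 clock genes.

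Leaving out 1 library gave 1437 to 1590 genes higher and 1550 to 1807 lower, 0.449 to 0.527 for Cirbp and -0.113 to -0.0406 for Rbm3. Counts of genes lower ranged from 0 to 2 for cold shock domain, 0 to 1 for glycine-rich, 15 to 16 for heat shock, 1 to 2 for clock, 0 to 2 for partner, 1 to 2 for splicing kinase and 2 to 3 for hypoxia genes. Counts higher ranged from 4 to 6 for glycine-rich, 1 to 2 for heat shock, clock, receptor, partner and hypoxia genes, and stayed at 1 for cold shock domain and splicing kinase genes.

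Uncalled genes that changed sign are given by their range over the fits that leave out 1 library: Carhsp1 -0.0193 to 0.0682, Cd14 -0.174 to 0.441, Tyrobp -0.0221 to 0.0583, Ybx2 -0.26 to 0.142, Clk2 -0.0957 to 0.0188 and Dyrk1a -0.0431 to 0.00417. With total counts alone Clk2 stood at 0.02 and Dyrk1a at 0.0288.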
